A study of Sus scrofa with 9 samples.

Results

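Interleukins and colony-stimulating factors are secreted proteins by which endothelial cells call in, feed and activate leukocytes. Transcripts of 10 such genes were sought on 9 Affymetrix porcine arrays: IL6, IL7, IL15, IL18, IL1A, IL1B, CSF1, CSF2, CSF3 and LIF. Their probe sets were found by symbol. A probe set, a group of short probes read as 1 signal, was taken if the platform annotation gave it exactly 1 symbol and that symbol was listed. This found 11 probe sets of 24123 on the array, for 9 of the 10 genes and of 6765 genes so named on the array, and CSF1 was not analysed here. IL1A and IL1B had a pair of probe sets each and the others had 1.

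The cells were endothelial cells of the pig coronary artery, in 3 groups of 3 arrays. Passage 1 cells, the controls, had been in culture for 1 week. Passage 4 cells came from the same kind of primary culture, split every week until passage 4, and are the ones called senescent in the labels. Regenerated cells had regrown over a stretch of artery stripped of its endothelium in the living animal, and were then scraped off and cultured with no further passage. RNA was taken from cells in the basal state. Strain, sex and age are not named, nor is it said whether a group's arrays stem from different pigs or dishes. The p-values therefore reflect the spread among these arrays, part of which may be technical. The RNA labelled was 1 ug in the passage 1 and passage 4 groups and 0.5 to 1 ug in the regenerated group, and this cannot be told apart from the group.

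In textbook accounts, IL-1 binds its receptor on endothelium and works through MYD88 and NF-kB, which switches on IL6, CSF2, CSF3 and LIF along with IL1 itself. IL-6 and LIF signal through receptors that share the gp130 chain, and JAK kinases and STAT factors carry that signal. IL-7 and IL-15 act on lymphocytes through receptors that share the common gamma chain. Many of these messages are short lived, because proteins such as ZFP36 bind AU-rich elements in them and speed their decay. IL-6 and CSF2 are also usual parts of the secretory phenotype described in senescent fibroblasts.

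The values are MAS5 signals on a linear scale, with the same trimmed mean in every deposited array. They are not comparable between probe sets, so each gene is compared only with itself across arrays. Signals were analysed as log2(signal + 16), and every difference below is on that scale, which understates the change of dim probe sets. Testing required a signal above the array's 40th percentile, 37.2 to 49.2 signal units, in 3 or more of the 9 arrays. Of the 11 cytokine probe sets 8 were tested, among 15299 in all, for 7 of the genes. CSF3, LIF and the dimmer IL1B probe set were below that filter. A change was called at an adjusted p under 0.05 from limma, adjusted by the Benjamini-Hochberg method over all 15299 probe sets. The arrays measure a mixture, in which fewer cells making a transcript and less RNA per cell cannot be told apart.

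Some facts of the arrays touch the results. Bacterial transcripts added before labelling had 5' signal much lower than 3' signal in passage 1 arrays 2 and 3 and the 3 regenerated arrays (log2 -4.37 to -5.31), and less so in passage 1 array 1 and the 3 passage 4 arrays (-1.92 to -2.41). The labels name no such division. It was drawn at the largest gap in this difference, 1.96. Its sides are here called the kind of labelling, a name inferred from these signals. This division was also fitted as a block. That fit sets passage 4 against passage 1 array 1 alone, and regenerated cells against passage 1 arrays 2 and 3. Of 12 endothelial markers 10 or 11 lay above the 40th percentile in every array. KDR (0.8 to 23.6) and the brighter VWF probe set (22.8 to 52.1) were dim in all groups. The other VWF probe set read 2.31 to 89.8 and was not called in any comparison. NOS3 was called lower at passage 4 (-0.97). In regenerated cells CLDN5 was called lower (-1.62) and ENG higher (1.92). The summed signal of 7 fibroblast markers was 303 to 362 at passage 1, 528 to 652 at passage 4 and 1277 to 2141 in regenerated cells. That of 6 smooth muscle markers was 8685 to 24354, 7122 to 22236 and 20242 to 30623. Such sums mostly follow their brightest probe sets, for smooth muscle ACTA2 and TAGLN. ACTA2 alone read 13189, 2519 and 196 in passage 1 arrays 1, 2 and 3. The part of fibroblasts and smooth muscle cells in the differences below was not tested.

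**Figure D1:**
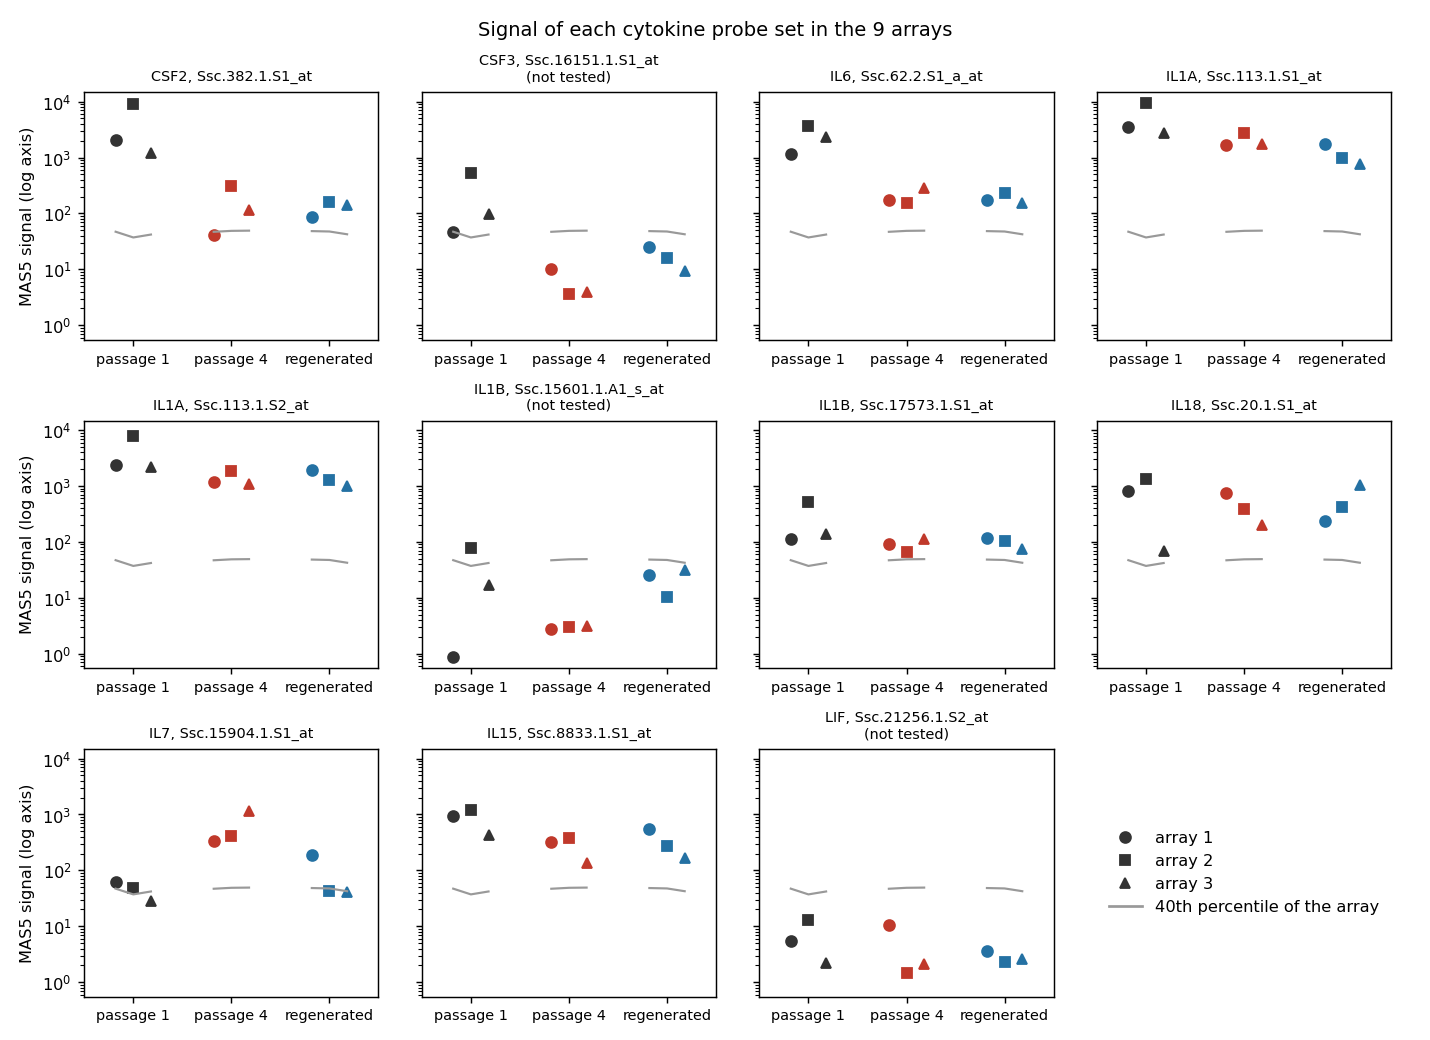
MAS5 signal (log axis) of the 11 cytokine probe sets in each of the 3 arrays per group, with circles, squares and triangles for arrays 1, 2 and 3 and a grey line for the 40th percentile of each array. All passage 1 points of CSF2 and IL6 lie above all other points of those panels, all passage 4 points of IL7 lie above the rest, and LIF lies under the grey line throughout.

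CSF2 and IL6 were far lower in both passage 4 and regenerated cells than in passage 1 cells, IL7 was higher at passage 4, and 1 probe set of IL1A fell in regenerated cells. At passage 4, 2 of the 8 tested probe sets fell (CSF2 and IL6), where 2.08% of all tested probe sets fell, and 1 rose (IL7), where 2.71% rose. In regenerated cells 3 fell (CSF2, IL6 and IL1A), where 2.51% of all fell, and 0 rose, where 2.98% rose. At unadjusted p under 0.05, in either direction, 7 of the 8 passed at passage 4, against 19.7% of all tested probe sets, and 5 in regenerated cells, against 22% of all. Both comparisons use the same 3 passage 1 arrays, so likeness between them is in part built in. The members were chosen with earlier results of these data known, and 2 of the 8 probe sets read IL1A. These counts thus describe the arrays and are no test of the list. The median log2 difference of the 8 was -1.26 at passage 4, against 0.04 over all tested probe sets, and -1.37 in regenerated cells, against -0.01 over all.

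CSF2 encodes GM-CSF, a growth factor that prolongs the life of granulocytes and macrophages and primes them. Its signal was 2073, 8910 and 1204 in passage 1 arrays 1, 2 and 3. It was 40.3, 309 and 114 in the passage 4 arrays, and 85.5, 159 and 139 in the regenerated arrays. The lowest passage 1 array was thus well above the highest of the other 6, although the passage 1 arrays themselves spread widely. Passage 4 array 1 lay below its own 40th percentile. The log2 difference was -4.41 at passage 4 (SE 0.70, limma adjusted p = 0.00569), or 21.3-fold lower. In regenerated cells it was -4.34 (SE 0.70, limma adjusted p = 0.00533), or 20.2-fold lower. Without passage 1 array 2 the differences were -3.58 and -3.51, and both still passed. The passage 4 difference was -4.63 with 1 added to the signal and -3.93 with 64. With the kind of labelling as a block CSF2 was at -3.97 at passage 4 and did not pass (limma adjusted p = 0.0928), and at -4.56 in regenerated cells, where it did (limma adjusted p = 0.0104).

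IL6 encodes a cytokine that drives the acute-phase response of the liver and the maturation of B cells. Its signal was 1143, 3624 and 2297 at passage 1, 174, 151 and 280 at passage 4, and 177, 232 and 156 in regenerated cells. The groups compared with passage 1 did not overlap with it, and they overlapped with each other. IL6 fell by 3.34 at passage 4 (SE 0.37, limma adjusted p = 0.00144), and by 3.40 in regenerated cells (SE 0.37, limma adjusted p = 0.000862). These are 10.1-fold and 10.6-fold lower. With the kind of labelling as a block IL6 was at -2.46 and -3.84 and passed in both (limma adjusted p = 0.0211 and 0.000504). It was the only 1 of the 3 genes called at passage 4 that did so there. It also passed with each array left out in turn, at -2.96 to -3.78 for passage 4 and -3.02 to -3.84 for regenerated cells.

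CSF3 encodes G-CSF, which drives the making of neutrophils in the marrow. Its signal was 46.8, 535 and 99.4 at passage 1, 10.3, 3.58 and 3.94 at passage 4, and 24.9, 16 and 9.45 in regenerated cells. All 6 of the latter arrays lay below the passage 1 arrays and below their own 40th percentiles, and passage 1 array 1 lay just under its own (47.1), so CSF3 missed the filter. In a fit of all 23999 probe sets with no filter its log2 difference was -2.87 at passage 4 (SE 0.61, limma adjusted p = 0.0391), and -2.30 in regenerated cells (SE 0.61, limma adjusted p = 0.0766). With values so near the lowest on the array, these differences depend on the added 16 and are no measure of fold.

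LIF encodes a relative of IL-6. All 9 of its signals lay between 1.46 and 12.7, below the 40th percentile of every array, and the probe set gave no basis for a comparison. In the fit with no filter its differences from passage 1 were -0.14 and -0.25, with limma adjusted p of 0.847 and 0.612.

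IL1A encodes IL-1 alpha, which sits in the cell as a precursor and acts as an alarm signal when released. Its probe sets are here called S1 and S2, after the ends of their names. S1 read 3514, 9316 and 2775 at passage 1. It read 1671, 2769 and 1765 at passage 4, and 1780, 989 and 760 in regenerated cells. The passage 1 and passage 4 groups nearly met, at 2775 and 2769, and the regenerated arrays lay clearly lower than passage 1. The log2 difference was -1.15 at passage 4 (SE 0.42, 95% interval -2.07 to -0.23, limma adjusted p = 0.151) and was not called. In regenerated cells IL1A fell by 2.01 (SE 0.42, limma adjusted p = 0.0194), and that call was lost without regenerated array 2 or 3 (-1.94 and -1.75, limma adjusted p = 0.0838 and 0.0828). Leaving out passage 1 array 2 gave -1.49, which passed.

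The other IL1A probe set, S2, read 2417, 7772 and 2204 at passage 1, 1180, 1855 and 1086 at passage 4, and 1913, 1294 and 1001 in regenerated cells. Here too passage 1 lay above all other arrays. The log2 differences were -1.36 at passage 4 (SE 0.42, limma adjusted p = 0.0938) and -1.34 in regenerated cells (SE 0.42, limma adjusted p = 0.0882), and neither was called. The passage 4 difference passed narrowly without passage 1 array 1 (limma adjusted p = 0.0497). The probe sets therefore gave like differences at passage 4 and unlike ones in regenerated cells.

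This came from their ratio within each array. The S1 probe set exceeded the S2 probe set by 0.26 to 0.54 (log2) in the passage 1 arrays and by 0.50 to 0.69 in the passage 4 arrays, but lay below it by 0.10, 0.38 and 0.39 in regenerated arrays 1, 2 and 3. Regenerated arrays also differed in the 5' signal of pig transcripts relative to their 3' signal. For the pig's Gapdh the 5' signal minus the 3' signal was -0.02, -1.07 and -1.52 in regenerated arrays 1, 2 and 3, and 0.14 to 0.46 in the other 6 arrays. For actin and EF1a regenerated arrays 2 and 3 were also the lowest, but regenerated array 1 was not apart: actin stood at -1.65 in it and -1.71 in passage 1 array 2, and EF1a at -0.93 and -0.80. Where the IL1A probe sets lie on the transcript is not given in the sources used here, and the part of labelling in the IL1A difference was not tested.

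**Figure D2:**
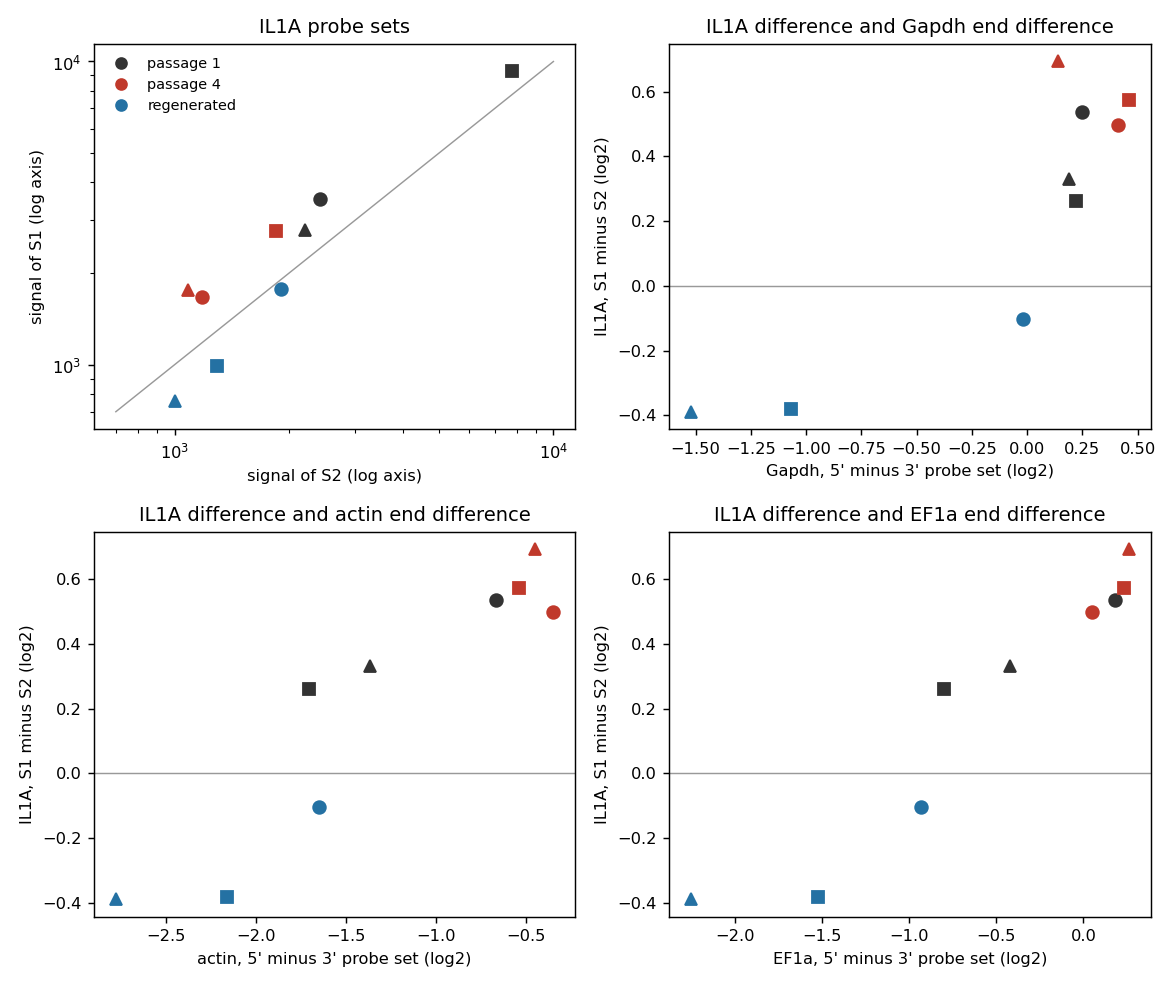
Top left, signals of the IL1A probe sets in the 9 arrays (log axes, with the line of equal signal); in the other panels, their log2 difference against the 5' minus 3' log2 difference of Gapdh, actin and EF1a, with circles, squares and triangles for arrays 1, 2 and 3 of each group. The 3 regenerated arrays lie below the line of equal signal, at log2 differences of -0.10 to -0.39, and the other 6 lie above it, while regenerated array 1 lies beside passage 1 array 2 on the actin and EF1a axes.

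IL1B encodes IL-1 beta, made as an inactive precursor that caspase-1 cuts. RefSeq lists a pig paralog, IL1B2, that also carries the name IL1B, and signal from the gene and its paralog may not be told apart. The brighter probe set read 113, 509 and 138 at passage 1, 91.8, 66.7 and 110 at passage 4, and 119, 102 and 75.8 in regenerated cells. Apart from passage 1 array 2 all arrays lay between 66.7 and 138. The log2 differences were -1.07 (95% interval -2.06 to -0.08, limma adjusted p = 0.214) and -0.95 (-1.94 to 0.04, limma adjusted p = 0.246), and neither was called. Without passage 1 array 2 they were -0.44 and -0.32. The dimmer probe set, whose name marks it as one that can read several transcripts, had 1 array above its 40th percentile, passage 1 array 2 at 78.4.

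IL18 encodes another cytokine cut by caspase-1, which induces interferon gamma in lymphocytes. Its signal was 805, 1346 and 69.7 at passage 1, 756, 388 and 199 at passage 4, and 235, 415 and 1037 in regenerated cells. Each group spanned a wide range, widest at passage 1, and all 3 overlapped. The log2 difference was -0.17 at passage 4 (95% interval -2.09 to 1.75) and 0.08 in regenerated cells (-1.84 to 2.00), with limma adjusted p of 0.941 and 0.974. Intervals this wide do not show a lack of change.

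IL7 encodes a cytokine that keeps T cells alive and is mostly made by stromal cells. It went the other way from CSF2 and IL6. Its signal was 60.7, 47.8 and 28.7 at passage 1, 331, 413 and 1141 at passage 4, and 185, 42.8 and 41.7 in regenerated cells. All passage 4 arrays lay above all other arrays, while regenerated array 1 stood apart from the other 2 of its group. At passage 1 IL7 was near the 40th percentile of the arrays, and array 3 lay below it. IL7 rose by 3.21 at passage 4 (SE 0.53, limma adjusted p = 0.00746). The size of this rise depends on the value added to the dim passage 1 signals, and was 3.59 with 1 and 2.49 with 64. In regenerated cells its difference was 0.55 (SE 0.53, 95% interval -0.61 to 1.71, limma adjusted p = 0.588), and without regenerated array 1 it was -0.05. In the fit with the labelling block the passage 4 difference was 2.86 and did not pass (limma adjusted p = 0.113). Fibroblast markers also differed between the groups. DCN read 20.1, 16.6 and 68.7 at passage 1, 142, 190 and 50.9 at passage 4 and 45.7, 21.1 and 54.5 in regenerated cells, and was not called (1.48 at passage 4, limma adjusted p = 0.107). LUM, FAP and THY1 were called higher in regenerated cells, and COL1A2 was not called in any comparison. FAP passed the filter through the regenerated arrays alone, so some difference was built into its choice. LUM read 660, 30.1 and 1014 in regenerated arrays 1, 2 and 3, with array 2 below its 40th percentile. COL3A1 and DPT were dim and were not tested. The part of such cells in the IL7 values was not tested.

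IL15 encodes a cytokine that supports natural killer cells and memory T cells. Its signal was 954, 1226 and 435 at passage 1, 328, 387 and 137 at passage 4, and 545, 278 and 169 in regenerated cells. The passage 4 arrays lay below the passage 1 arrays, and regenerated array 1 overlapped with them. Array 3 was the lowest in each group. The log2 differences were -1.56 (SE 0.49, 95% interval -2.62 to -0.50, limma adjusted p = 0.0949) and -1.38 (SE 0.49, -2.45 to -0.32, limma adjusted p = 0.12), and neither was called. Without regenerated array 1 the IL15 difference in regenerated cells was -1.81 and passed.

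**Figure D3:**
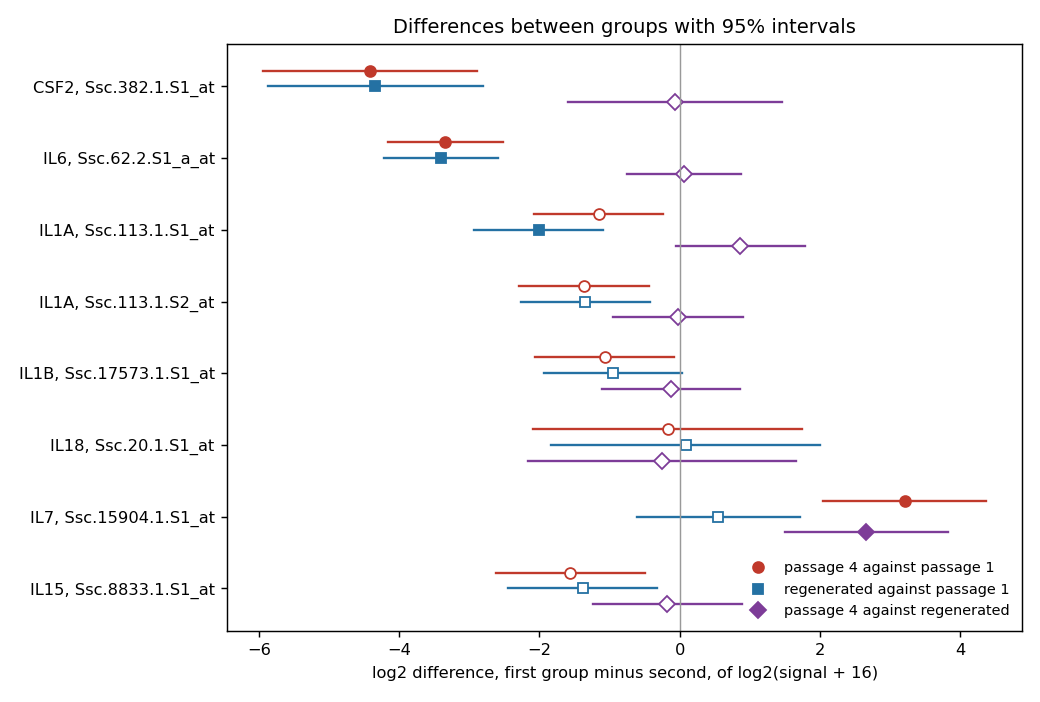
Log2 differences of log2(signal + 16) for the 8 tested cytokine probe sets in the 3 comparisons, with 95% intervals from limma; filled symbols mark an adjusted p under 0.05. CSF2 and IL6 lie at -3.34 or lower against passage 1 in both groups and near 0 between them, and IL7 is the only filled symbol of passage 4 against regenerated cells.

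Counted by overlap, 6 of the 8 tested probe sets had all passage 4 arrays below all passage 1 arrays, against 9.61% of all tested probe sets, and 1, IL7, had all of them above, against 15.3%. In regenerated cells 4 of the 8 lay wholly below passage 1, against 10.8% of all. These 4 were CSF2, IL6 and both IL1A probe sets, and the 6 at passage 4 added IL15 and the brighter IL1B probe set. The probe sets of IL1A read the same gene and are not separate evidence.

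Passage 4 and regenerated cells were also compared directly, which tests whether the 2 changes from passage 1 differ, since the control cancels. The kind of labelling does not cancel, as it differed between all passage 4 and all regenerated arrays. Labelling and group therefore cannot be told apart here. A fit with the kind of labelling as a block then rests on how passage 1 array 1 differs from arrays 2 and 3. IL7 was the 1 tested cytokine probe set called, higher at passage 4 by 2.66 (SE 0.53, limma adjusted p = 0.00897), with 2.94 and 2.11 when 1 or 64 was added to the signal. Of all tested probe sets 8.14% were higher at passage 4 and 4.35% lower, and 0 of the cytokine probe sets were lower in limma. At unadjusted p under 0.05 IL7 was again the 1 of 8 that passed, against 28.6% of all. The IL7 groups did not overlap, as was so upward for 20.1% of all. Without regenerated array 1 the IL7 difference was 3.26, and with the kind of labelling as a block it was 2.14 and did not pass (limma adjusted p = 0.276). For IL6 the difference was 0.06 (95% interval -0.75 to 0.88) and for CSF2 -0.07 (-1.60 to 1.45). The CSF2 interval is the wider, and neither shows that the groups are alike. Blocking on labelling, these differences were 1.39 and 0.59, and neither passed. IL1A was at 0.86 (-0.06 to 1.78) by the S1 probe set and -0.02 (-0.95 to 0.91) by the S2 probe set.

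The order of the groups by mean log2 signal was thus passage 1 highest for CSF2, IL6, both IL1A probe sets, IL15 and the brighter IL1B probe set, and passage 4 highest for IL7. Passage 4 and regenerated cells, the lower neighbours in the orders of CSF2 and IL6, did not differ beyond their spread. For IL7 the lower neighbours, regenerated and passage 1 cells, overlapped. The order for IL18, with regenerated cells on top by 0.08, was within the spread at each step.

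Much of the level of these genes at passage 1 came from 1 array. Passage 1 array 2 was the highest of its group for 7 of the 8 tested cytokine probe sets, and for 10 of all 11, while it was the highest for 23.8% of all tested probe sets. It exceeded the mean of the other passage 1 arrays by at least 1 (log2) for 6 of the 8, and for 1.9% of all tested probe sets. The excess was 2.48 for CSF2, 2.36 for IL18 and 1.15 for IL6. It was 1.57 and 1.75 for the IL1A probe sets and 1.90 for the brighter IL1B probe set. For IL18 array 3 was also low, with 805, 1346 and 69.7 in passage 1 arrays 1, 2 and 3. IL7 was the exception, highest in array 1. Of 9 leukocyte markers 0, 0 and 4 lay above the 40th percentile in passage 1 arrays 1, 2 and 3, with summed signals of 102, 136 and 380, and the part of leukocytes in these levels was not tested. The labels name nothing that sets array 2 apart.

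**Figure D4:**
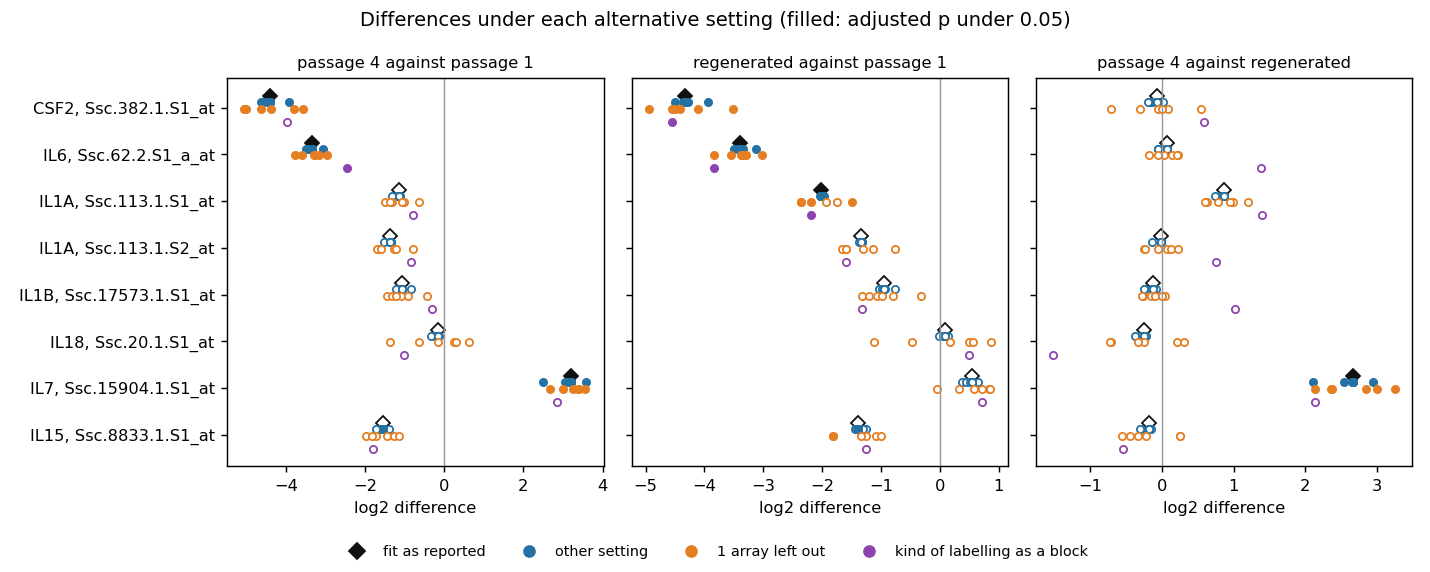
Log2 differences of the 8 tested cytokine probe sets under each setting: diamonds for the reported fit, and circles for other settings in blue, 1 array left out in orange and the kind of labelling as a block in purple; filled symbols mark an adjusted p under 0.05. CSF2, IL6 and IL7 keep their sign against passage 1 at passage 4 throughout, and in the block for the kind of labelling only IL6 is filled there.

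Receptors were thinly covered. Of 18 receptor genes of these cytokines 5 had a named probe set and 1 was tested, IL1R1, the signalling receptor of IL-1. The mean signal of its brighter probe set was 901 ± 23.6 in passage 1 arrays, 559 ± 122 in passage 4 arrays and 461 ± 135 in regenerated arrays (SD, n = 3). It fell in regenerated cells by 0.98 (SE 0.24, limma adjusted p = 0.0362), a call lost in 8 of 16 alternatives, and was at -0.70 and not called at passage 4. A dimmer IL1R1 probe set read 126 ± 11.2 in passage 4 arrays and 32.0 ± 4.64 in regenerated arrays (SD, n = 3), and passage 1 array 1 stood at 111 against 36.3 and 29.1 in arrays 2 and 3, the same division as the kind of labelling.

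Of 12 genes that process or oppose these cytokines 8 were tested. At passage 4, 2 fell, CASP1 and GSDMD, where 2.08% of all tested probe sets fell. In regenerated cells ADAM17, a protease that sheds cytokine receptors, fell by 0.84 (limma adjusted p = 0.0449), while GSDMD rose. Of all tested probe sets 2.51% fell and 2.98% rose there. The ADAM17 call was lost in 10 of 16 alternatives, and its other probe sets were not called (-0.12 and -0.67). CASP1, for the caspase that cuts the IL-1 beta and IL-18 precursors, read 80.5, 54.5 and 69.0 at passage 1. It read 8.02, 2.35 and 22.5 at passage 4, and 40.5, 19.4 and 4.72 in regenerated cells. CASP1 passed the filter through the passage 1 arrays alone, and its passage 4 signals lie below the 40th percentiles. The size of the passage 4 difference is thus set by the value added: -2.93 with 1, where it did not pass, and -0.82 with 64. The passage 4 call (limma adjusted p = 0.0372) was lost in 8 of 15 alternatives. In regenerated cells CASP1 was at -1.27 and not called (limma adjusted p = 0.0929). Between passage 4 and regenerated cells its difference was -0.43 (limma adjusted p = 0.53). GSDMD, for the pore protein that lets mature IL-1 beta out of cells, read 799, 812 and 889 at passage 1, 500, 499 and 508 at passage 4, and 1217, 1466 and 1666 in regenerated cells. The 3 groups did not overlap. GSDMD fell by 0.71 at passage 4 (limma adjusted p = 0.0421), rose by 0.78 in regenerated cells (limma adjusted p = 0.027), calls lost in 10 and 6 of 16 alternatives, and the difference between the changes was -1.49 (SE 0.18, limma adjusted p = 0.001). Under the labelling block that difference was -1.40 and did not pass (limma adjusted p = 0.083).

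Of 23 genes of receptor signalling 14 were tested. At passage 4, 2 fell, STAT5A and CEBPB, where 2.08% of all tested probe sets fell. Those calls were lost in 10 and 7 of 16 alternatives. The other STAT5A probe sets were at -0.68 and -0.28 and were not called. In regenerated cells 1 fell, CEBPD, where 2.51% of all fell. CEBPB and CEBPD encode C/EBP factors that bind the IL6 and CSF3 promoters. CEBPB averaged 2345 ± 315 in passage 1 arrays, 1197 ± 375 in passage 4 arrays and 2104 ± 108 in regenerated arrays (SD, n = 3), and its fall at passage 4 passed (limma adjusted p = 0.0286). CEBPD read 2785 ± 1236, 1112 ± 340 and 670 ± 69.4 (SD, n = 3), at -1.91 in regenerated cells (limma adjusted p = 0.00835) and -1.24 at passage 4 (limma adjusted p = 0.0593). Its 2 dimmer probe sets also passed in regenerated cells, and 1 of them passed at passage 4. A dimmer TYK2 probe set was called higher at passage 4 (2.72, limma adjusted p = 0.0441), while the brightest was at 0.14 and not called. That dimmer probe set read 149 in passage 1 array 1 against 2.24 and 3.05 in arrays 2 and 3, the same division as the kind of labelling. MYD88, the adaptor of the IL-1 and IL-18 receptors, read 144 ± 66.6, 252 ± 45.8 and 49.8 ± 30.5 (SD, n = 3). It was not called against passage 1 in either group, and was higher at passage 4 than in regenerated cells by 2.11 (SE 0.38, limma adjusted p = 0.00647), or 1.19 and not called with the kind of labelling as a block (limma adjusted p = 0.341). JAK2 was lower at passage 4 than in regenerated cells by the brighter probe set, at -1.04 (limma adjusted p = 0.0443). It did not hold in 7 of 16 alternatives, with -0.47 under the labelling block, and the other JAK2 probe set was at -0.17 and not called. The median log2 difference of the 14 was -0.45 at passage 4, against 0.04 over all tested probe sets. In regenerated cells it was -0.27, against -0.01 over all.

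Of 47 other cytokine genes 20 had a named probe set and 5 were tested. IFNB1, for interferon beta, was the 1 called against passage 1. Of all tested probe sets 2.08% fell at passage 4 and 2.51% in regenerated cells. IFNB1 read 81.7, 199 and 122 at passage 1, 21.8, 7.28 and 11.2 at passage 4, and 26.4, 16.1 and 3.16 in regenerated cells. Like CASP1, it passed the filter through the passage 1 arrays alone, so some difference was built into its choice. Both differences passed (limma adjusted p = 0.00855 and 0.00762), but their size depends on the value added: -3.26 and -3.34 with 1, and -1.32 and -1.29 with 64. Under the labelling block the passage 4 difference did not pass (-1.76, limma adjusted p = 0.156). KITLG, for stem cell factor, was higher at passage 4 than in regenerated cells by 1.21 (limma adjusted p = 0.0394), a call lost in 7 of 15 alternatives. Of 11 genes that govern the decay of such messages 4 were tested. ZFP36 was the 1 called lower at passage 4, where 2.08% of all fell, at -1.70 (SE 0.31, limma adjusted p = 0.0125). It went from 368 ± 158 to 95.5 ± 15.1 (SD, n = 3). In regenerated cells ZFP36 read 277 ± 56.4, and the difference between passage 4 and regenerated cells was -1.39 (limma adjusted p = 0.0149). Under the labelling block the ZFP36 differences were -1.03 and -0.38, and neither passed (limma adjusted p = 0.214 and 0.676). The passage 4 call was also lost without passage 1 array 2 (-1.41) or passage 4 array 2 (-1.59), and the direct one without passage 4 array 2 (-1.27) or regenerated array 3 (-1.25).

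**Figure D5:**
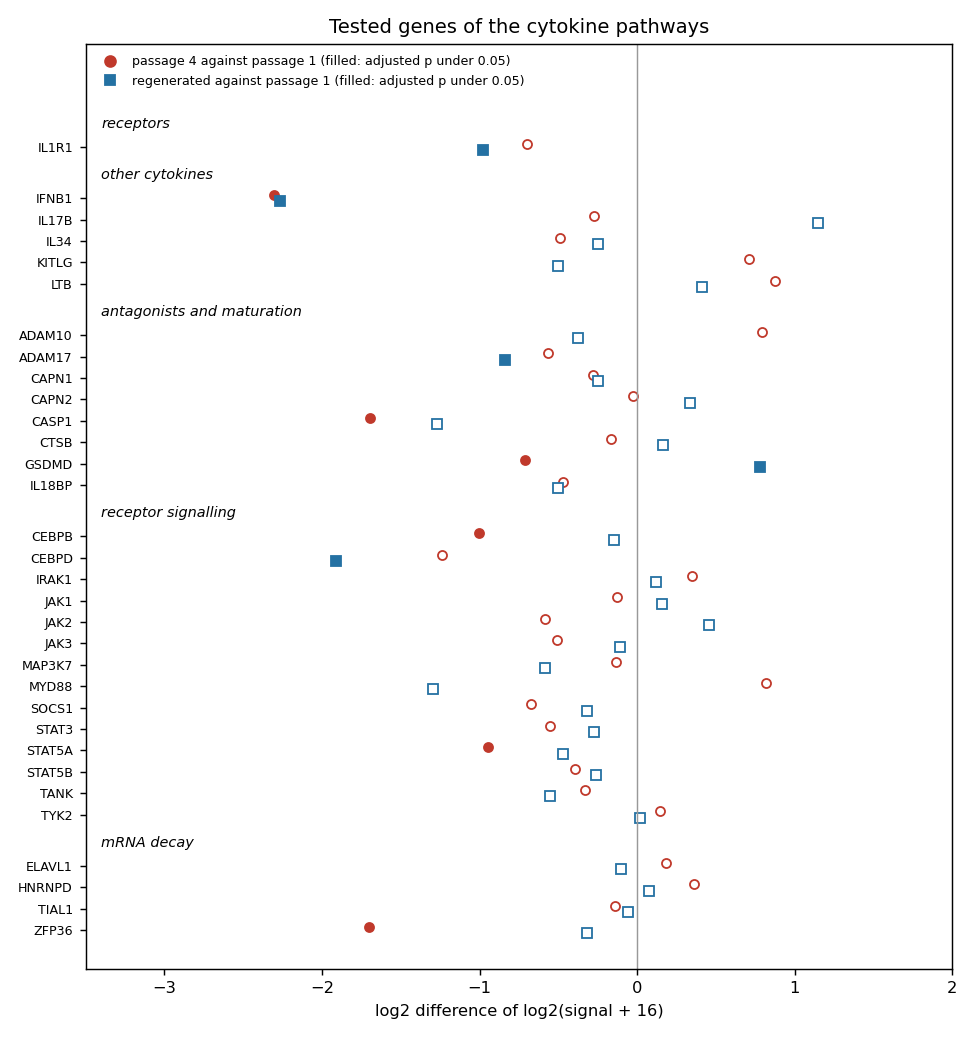
Log2 differences from passage 1 of the tested receptor, cytokine, processing, signalling and mRNA decay genes, by the brightest tested probe set of each gene; circles stand for passage 4, squares for regenerated cells, and filled symbols for an adjusted p under 0.05. IFNB1 lies lowest at passage 4 (-2.31), and GSDMD is the 1 gene filled on both sides of 0.

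The genes most like IL6 across the 9 arrays, among 5493 other named genes and by Pearson's r of log2(signal + 16), were NCF1 (0.98), ITPR3 (0.97), SMAGP (0.96), IFNB1 (0.96) and IRF1 (0.96). NCF1 encodes a subunit of the phagocyte NADPH oxidase, ITPR3 a calcium channel and IRF1 a transcription factor of the interferon response. The genes most like IL7 were ENOSF1 (0.95), STMN1 (0.95), NUSAP1 (0.95), STMN2 (0.94) and OIP5 (0.94). NUSAP1 and OIP5 act in mitosis, STMN1 and STMN2 encode microtubule regulators, and ENOSF1 is an antisense neighbour of the thymidylate synthase gene. STMN2 read 5207, 1018 and 8757 at passage 4 and 371 in regenerated array 1, against 148 or less in the other 5 arrays, so it shares the rise of IL7 in that array. These values describe 9 arrays that share 3 groups and the kinds of labelling, and a high r can come from the group means alone. Genes picked this way differ between the groups largely as IL6 or IL7 does by their choice, so a test of them is no separate evidence.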

How the data were processed

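Probe set intensities of 9 arrays were used as the authors deposited them, named MAS5 signals per the submitters' processing notes. Its version and settings were not stated there. Every array had the same 2% trimmed mean, 500.1, and none was rescaled. Control probe sets (124) were left out. From these intensities log2(signal + 16) was computed, and a linear model of the 3 groups over all 9 arrays was fitted with limma 3.58.1 (R 4.3.3), whose eBayes step used a trend in mean signal, with two-sided tests adjusted over the 15299 probe sets of a comparison. The script was tested on simulated data. The number of arrays limits the precision.

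The members and lists were chosen with earlier results of these data known. Every member was named whatever its result, and of the pathway lists the genes with a call. Lists used the brightest tested probe set of a gene. All 9 measured genes matched RefSeq genes of Sscrofa11.1 by Entrez identifier. No coordinates or sequences were used here. Alternatives were other pseudocounts, filters and scalings, no trend, the compared groups alone, a replicate block, the kind of labelling as a block, and each array left out. Replicate numbers were not taken as pairing the arrays.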

Additional observations from a re-analysis of the deposited data

Results flagged for a closer look

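For 10 genes the change from passage 1 differed between passage 4 and regenerated cells, by the direct test of these groups (limma adjusted p under 0.05). The kind of labelling and the group coincide in that test. The count covers the cytokines, the brightest probe set of each pathway gene and the genes most like IL6 or IL7. Marker genes and dimmer pathway probe sets were left out, and some of these, such as ENG and THY1, also passed. Of all tested probe sets 8.14% were higher at passage 4 and 4.35% lower. Among the 10 genes IL7 is the 1 member cytokine, with a difference of 2.66 (log2, passage 4 minus regenerated). The pathway genes were GSDMD at -1.49, JAK2 at -1.04, MYD88 at 2.11, CEBPB at -0.86, KITLG at 1.21 and ZFP36 at -1.39. The others, ENOSF1 at 0.94, NUSAP1 at 1.09 and STMN2 at 4.10, were picked for their likeness to IL7 over these same arrays. That choice largely fixes their difference, so their passing is no separate evidence. With the kind of labelling as a block none of the 10 passed, among 35 probe sets in all that did.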

How the results depend on the processing

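For the cytokine results past the threshold, 107 of 112 alternative values stayed past it, 5 did not and 0 reversed. With the kind of labelling as a block the calls at passage 4 went from 733 to 150 and those of passage 4 against regenerated cells from 1912 to 35, and the cytokine probe sets called from 3 to 1 and from 1 to 0. The calls in regenerated cells went from 840 to 479 with only the compared groups fitted and to 554 with the replicate block, which gave 549 and 1626 in the other comparisons and also called IL15 (-1.56 at passage 4 and -1.39 in regenerated cells, limma adjusted p = 0.0178 and 0.0265). Deviations from the group means correlated at -0.138 to 0.186 between arrays of the same number, and at -0.199 to 0.185 between other arrays. With 3 arrays a group this cannot decide whether replicate numbers pair the arrays. Leaving out 1 array gave 244 to 1403 calls at passage 4 (244 without passage 1 array 2), 291 to 1238 in regenerated cells and 895 to 2376 between them. Median centring gave 299 higher and 455 lower at passage 4, against 415 and 318, and 1025 and 934 between passage 4 and regenerated cells, against 1246 and 666. The 27 reversals were all of differences not past the threshold. For passage 4 against regenerated cells CSF2 was 0.01 with a pseudocount of 64 and 0.59 with the kind of labelling as a block, where IL1A (S2) was 0.75 and IL1B 1.01, and IL6 was -0.062 under quantile normalization and -0.063 under median centring. IL18 in regenerated cells was -0.019 with a pseudocount of 64. With 1 array left out IL18 ran from -1.38 to 0.62 at passage 4 and from -1.13 to 0.87 in regenerated cells, and IL7 there from -0.048 to 0.85. Between passage 4 and regenerated cells the ranges were -0.18 to 0.23 for IL6, -0.56 to 0.25 for IL15, -0.73 to 0.31 for IL18, -0.25 to 0.23 for IL1A (S2), -0.27 to 0.043 for IL1B and -0.71 to 0.55 for CSF2. The causes were not tested.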
